A study of Rattus norvegicus with 24 samples.

Results

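Solute carriers are the membrane proteins that move ions, amino acids, metals, nutrients and metabolic intermediates into cells and between their compartments, and their genes carry the prefix Slc in the rat. Here 277 Slc genes were described in male germ cells of the Brown Norway rat. They were chosen by a rule on names, with earlier results of these data known. Each is represented on the array by at least 1 probe set with a single gene symbol that starts with Slc and a digit. The glucose (Slc2a) and lactate (Slc16a) families, 18 genes, were left out. A gene with several probe sets was read from the one with the highest mean, so the 277 genes are 277 of the 14217 genes measured by a probe set with 1 symbol. Of these, 135 lay above the median of all genes in at least 1 of the 4 groups of arrays and are the ones described by name.

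The series compared pachytene spermatocytes, which are in meiotic prophase, with round spermatids, the haploid cells that follow meiosis, in young rats of 4 months and aged rats of 18 months. Both cell types came from the same kind of testis digest, separated by sedimentation through a STAPUT gradient into enriched fractions that are not pure. No treatment, transgene or mutation was involved. Each of the 4 groups held 6 Affymetrix Rat230_2 arrays of numbered rats.

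Germ cells past the blood-testis barrier cannot draw directly on plasma. They take up amino acids, taurine, creatine, carnitine, metals and ions through their own transporters, from the fluid that Sertoli cells supply. Within the cell, the Slc25 family of the inner mitochondrial membrane exchanges metabolites with the cytosol; its ADP/ATP carriers export the ATP made by respiration. Anion and cation transporters of spermatids, among them Slc26 exchangers, set the ion content on which later sperm motility and capacitation depend.

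Array medians in the deposited log2 values were 7.02 to 7.38 in young and 6.62 to 6.92 in aged pachytene spermatocytes, and 7.56 to 7.86 in round spermatids. The dimmest value was near 3.3 on pachytene and above 6 on round spermatid arrays, so dim values of the 2 fractions do not share a scale as deposited. Levels and differences between fractions are therefore given on a matched scale, after an offset on the pachytene values and quantile normalization of all 24 arrays, and age differences on a scale normalized within each fraction. Pachytene arrays of young rats 1, 10 and 11 stood apart from the others on a first component that held 73.9% of the variance (-86.3, -47.1 and -44.0, against -7.38 to 3.78 for the other young rats). Of the pachytene markers 11 of 12 were lower in round spermatids, and of the acrosomal and spermatid markers 10 of 10 were higher, so the fractions carried the labelled cell types. Other lists went both ways. In round spermatids macrophage markers were higher in 11 and lower in 0 of 12, and peritubular markers in 7 and 1 of 10. Leydig cell markers were higher in 1 and lower in 6 of 10, and endothelial and blood markers in 2 and 4 of 7. The part of such cells in differences between fractions was not tested. Sertoli cell markers (14 measured) were, on average, 2.26 to 2.96 log2 units above the array median in young pachytene arrays and 1.49 to 1.84 in aged ones; in round spermatids the ranges were 0.42 to 0.91 and -0.01 to 0.32. Of these 14 markers 11 were above the median in young and 10 in aged pachytene arrays. Clu and Cldn11, among the brightest, were 5.81 and 4.68 above the median in young pachytene spermatocytes and 4.91 and 3.59 in aged ones. Amh, Rhox5 and Dhh lay below it at both ages, at -1.44, -1.06 and -0.28 in young rats. Late spermiogenesis markers (14 measured) were also detected in pachytene arrays, at 4.78 to 5.76 above the median in young and 4.43 to 4.92 in aged rats. In such fractions, fewer cells of a type and less RNA per cell cannot be told apart.

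Between 36.1% and 39.0% of the 277 members were above the median of all genes in a given group. There were 100 in young and 106 in aged pachytene spermatocytes, and 108 in young and 106 in aged round spermatids. In all 4 groups 75 members were above it, in 3 groups 10, in 2 groups 40, in 1 group 10 and in none 142. Members just inside this limit were Slc4a11 and Slc13a3, at most 0.0060 and 0.0136 log2 units above the median; Slc9a2 and Slc25a42 fell just outside, at -0.0340 and -0.0378. By substrate, mitochondrial carriers supplied 29 of their 40 members to the 135, and carriers of zinc, copper, iron and manganese 19 of 25. Amino acid and peptide transporters supplied 21 of 50, and transporters of bicarbonate, chloride, sulfate and other anions 8 of 24. Transporters of neurotransmitters, taurine and creatine supplied 4 of 16. Slc7a6os and Slc4a1ap carry the prefix but are not transporters, and are counted only in totals.

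**Figure D1:**
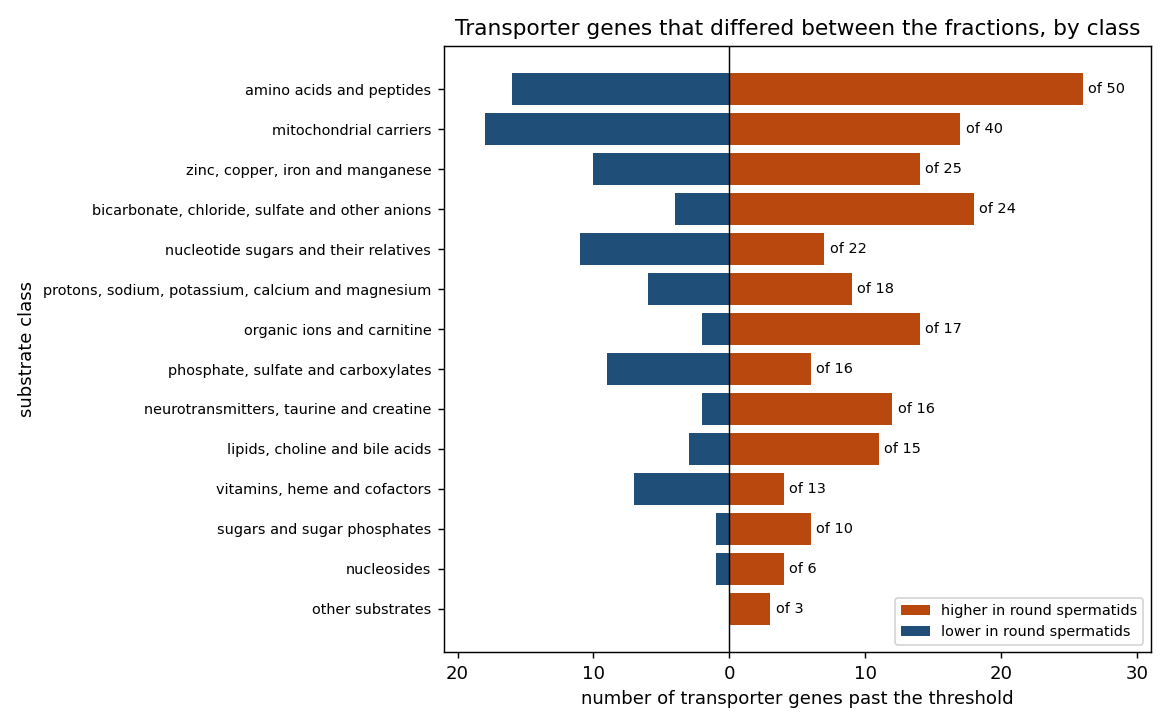
Number of Slc genes in each substrate class (vertical axis), split by call between round spermatids and pachytene spermatocytes (adjusted p under 0.05). Organic ion and carnitine transporters had 14 higher and 2 lower of 17, and mitochondrial carriers 17 higher and 18 lower of 40. Over all genes 49.2% were higher and 39.1% lower. Of the 17 organic ion and carnitine transporters 12 lay below the median of all genes, 10 of them higher.

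The first comparison asked how the transporter set differed between meiotic and haploid germ cells. Of the 277 members 151 were higher in round spermatids and 91 lower (limma on all 31042 probe sets, Benjamini-Hochberg adjusted p under 0.05), against 49.2% of all genes higher and 39.1% lower. The 135 members above the median of all genes were near that background, with 69 higher (51.1%) and 54 lower (40%). Of the 142 dim members 82 were higher (57.7%) and 37 lower (26.1%). Both splits depend on the limit, which a member can pass through the fraction where it is high alone. All genes, bright and dim, form the background, and equally dim genes were not counted. At least 2-fold differences were found for 30 higher and 20 lower members, against 10.4% and 9.98% of all genes. The median difference was 0.09 log2 units for members and 0.05 for all genes. In 79 members every round spermatid array lay above every pachytene array (29% of all genes) and in 44 every one lay below (20.8%). The balance depended on scaling: centring each array on its hybridization controls gave 89 higher and 122 lower (42.2% of calls higher, against 62.4%), and the deposited values after the offset 122 and 120 (50.4%). Over all genes these scalings gave 32.3% higher and 48.4% lower, and 39.7% and 46.8%.

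Slc6a6, the taurine transporter, showed the largest rise. Its pachytene levels on the matched scale were 8.44 to 10.23 (median 9.04) in young and 8.38 to 8.93 (median 8.63) in aged rats. In round spermatids they were 11.30 to 11.89 (median 11.79) in young and 11.86 to 12.02 (median 11.92) in aged rats. The fractions did not overlap, and the highest pachytene array was that of young rat 11. The difference was 2.88 ± 0.16 log2 units (SE, n = 12 arrays per fraction), 7.37-fold, with adjusted p = 3.4e-14. A second Slc6a6 probe set was higher by 2.41 ± 0.14.

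Slc17a2, of the sodium and phosphate cotransporter family, had pachytene levels of 10.45 to 12.57 (median 11.36) in young and 9.85 to 10.64 (median 10.04) in aged rats. Its round spermatid levels were 13.04 to 13.35 (median 13.18) and 12.68 to 12.96 (median 12.87). All round spermatid arrays were above all pachytene arrays, the closest being young rat 1 in pachytene. The difference was 2.26 ± 0.18 (4.78-fold, adjusted p = 3.49e-11). Slc66a2, a PQ-loop protein, was 2.33 ± 0.14 higher (5.01-fold), with pachytene levels of 7.29 to 8.80 against 9.65 to 10.57 in round spermatids.

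Slc36a3, a relative of the proton-coupled amino acid transporters known from testis, was higher by 1.92 ± 0.16 (3.77-fold, adjusted p = 1.55e-10). Its pachytene levels were 9.20 to 11.13 (median 9.61) in young and 9.08 to 9.34 (median 9.19) in aged rats. In round spermatids they were 11.26 to 12.18 (median 11.70) and 10.87 to 11.37 (median 11.15). Young rat 1 made the groups overlap: its pachytene array reached 11.13, and the other fraction began at 10.87. Young rat 1 had the highest level of the 6 young pachytene arrays in 26 of the 69 members above the median of all genes that were higher in round spermatids, and in 22 of the 54 that were lower. It had the lowest level in 9 of those 69 and in 19 of those 54. Its late spermiogenesis markers were at 5.76 above the median, and those of young rats 10 and 11 at 5.41 and 5.49, whereas rats 2, 3 and 13 had 4.78 to 4.94. The part of that marker level in these values was not tested.

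Other members at least 2-fold higher in round spermatids covered several substrates. Slc25a41, an ATP-Mg/phosphate carrier of mitochondria, was higher by 1.80 ± 0.09, and Slc25a35, of the same family, by 1.85 ± 0.07. Slc26a5 (prestin), an anion-binding motor protein of the outer hair cell, was higher by 1.76 ± 0.07, its pachytene medians of 7.28 and 7.19 lying below its round spermatid medians of 9.06 and 9.08. Slc37a1, an endoplasmic reticulum glucose-6-phosphate antiporter, rose by 1.72 ± 0.07. Slc25a37 (mitoferrin 1), which brings iron into mitochondria, was 1.57 ± 0.06 higher. Slc1a5 (ASCT2), which exchanges glutamine and other neutral amino acids, was 1.35 ± 0.06 higher, and Slc22a5 (OCTN2), the plasma membrane carnitine transporter, 1.01 ± 0.04 higher. In each of these 7 genes the fractions did not overlap.

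**Figure D2:**
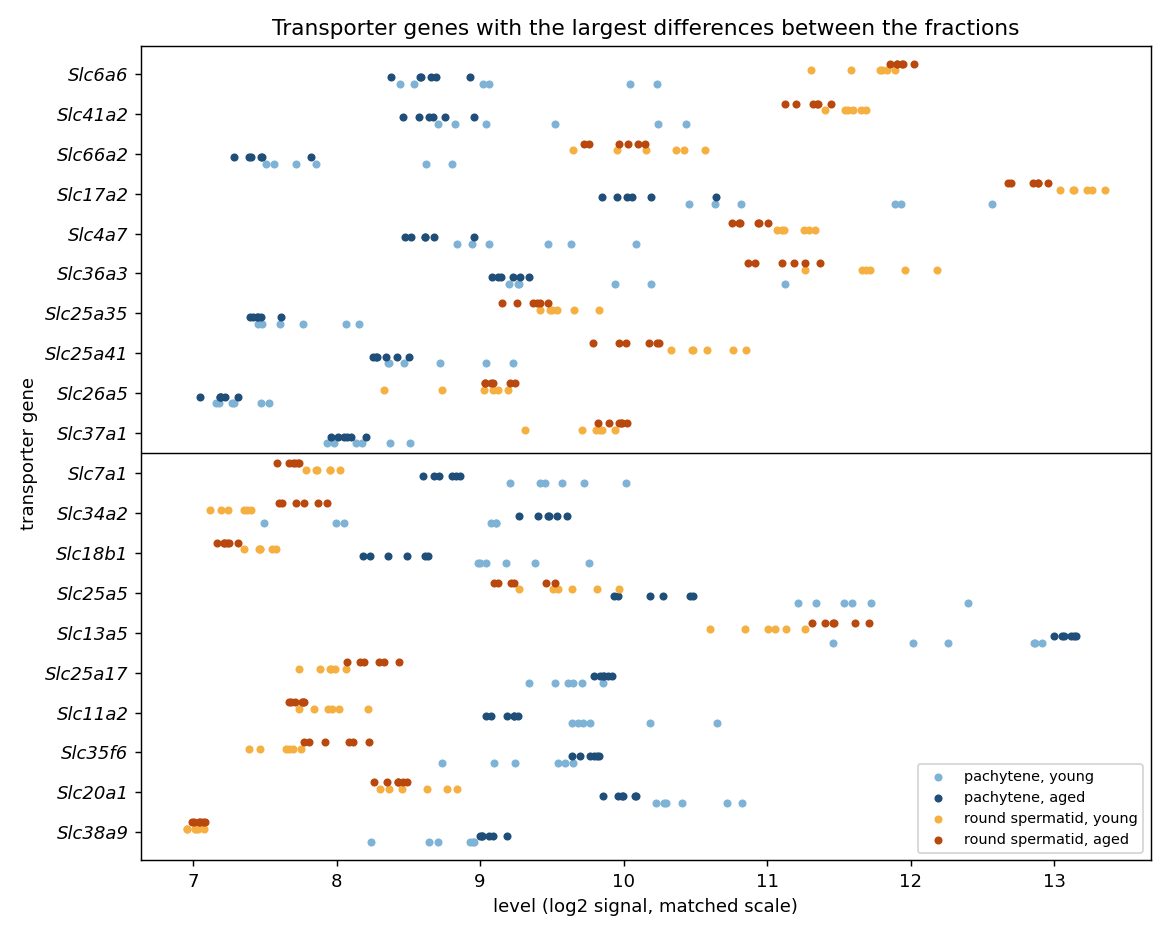
Levels on the matched log2 scale in each array for members with large differences between fractions; each point is 1 array, coloured by group (6 arrays each). Slc6a6 arrays sit between 8.38 and 10.23 in pachytene spermatocytes and between 11.30 and 12.02 in round spermatids.

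For some members the probe sets of 1 gene went opposite ways, so no single direction can be given. Slc41a2, a magnesium transporter, was 2.37 ± 0.15 higher in round spermatids by its brighter probe set and lower by 1.12 (log2 -1.12 ± 0.05) by the other. Slc4a7, the sodium bicarbonate cotransporter NBCn1, differed by 2.04 ± 0.10 and -1.31 ± 0.08. Slc40a1 (ferroportin), the cellular iron exporter, gave 1.72 ± 0.09 with the brightest probe set, -0.14 ± 0.02 with the second and -0.05 ± 0.03, which did not pass, with the third. Slc33a1, the acetyl-CoA transporter of the endoplasmic reticulum, gave 0.39 ± 0.04, -2.05 ± 0.05 and -1.06 ± 0.03. Slc52a3, a riboflavin transporter, gave -1.08 ± 0.09 and 1.15 ± 0.08. Of the 71 members with more than 1 probe set, 34 had another probe set that passed the threshold in the opposite direction between fractions; with age the same held for 4 members in pachytene spermatocytes and 1 in round spermatids. Between fractions 49.2% of all genes were higher and 39.1% lower. How often probe sets of other genes went opposite ways was not counted, so these counts do not set transporters apart. The arrays do not show which transcript each probe set reads, and its part was not tested.

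Slc38a9, the lysosomal arginine sensor of the mTORC1 pathway, showed the largest fall. Pachytene levels were 8.24 to 8.96 (median 8.82) in young and 9.001 to 9.19 (median 9.04) in aged rats. Round spermatid levels were 6.96 to 7.08 (median 7.02) and 6.99 to 7.08 (median 7.05). The 2 fractions lay apart, and the difference was -1.87 ± 0.06 (3.67-fold lower, adjusted p = 1.14e-18). Slc20a1 (PiT-1), a sodium-dependent phosphate transporter, had levels of 9.86 to 10.82 in pachytene spermatocytes and 8.26 to 8.84 in round spermatids, a difference of -1.75 ± 0.07 (3.35-fold lower). Slc11a2 (DMT1), which imports ferrous iron, differed by -1.72 ± 0.09, with pachytene medians of 9.74 and 9.21 and round spermatid medians of 7.95 and 7.73; its second probe set did not pass (-0.05 ± 0.04). Slc25a17, the peroxisomal carrier of coenzyme A and related cofactors, differed by -1.65 ± 0.05 and again without overlap.

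Slc13a5, the sodium-coupled citrate transporter, was lower by 1.50 log2 units (-1.50 ± 0.13, adjusted p = 1.2e-10). Its pachytene levels were 11.46 to 12.92 (median 12.56) in young and 12.996 to 13.15 (median 13.09) in aged rats, and its round spermatid levels 10.60 to 11.27 (median 11.03) and 11.31 to 11.71 (median 11.46). Only the lowest pachytene array, that of young rat 1, reached into the round spermatid range. Slc18b1, a polyamine transporter, differed by -1.47 ± 0.07, and Slc34a2, the phosphate cotransporter NaPi-IIb, by -1.45 ± 0.14. Slc7a1 (CAT1), which imports arginine and lysine, differed by -1.36 ± 0.06 and Slc38a2 (SNAT2), a neutral amino acid importer, by -1.33 ± 0.06. The 2 chains of the CD98/LAT1 exchanger were both lower, the heavy chain Slc3a2 by 0.49 (log2 -0.49 ± 0.03) and the light chain Slc7a5 by 0.94 (log2 -0.94 ± 0.07).

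By class, counts are read against 49.2% higher and 39.1% lower over all genes, shares that were 32.3% to 45.4% and 44.0% to 48.4% under the other scalings. Higher calls outnumbered lower ones for organic ion and carnitine transporters (14 higher and 2 lower of 17) and for transporters of neurotransmitters, taurine and creatine (12 and 2 of 16), and under each other scaling as well (8 to 13 against 2 or 3, and 9 to 13 against 2). Most of these genes are dim: of those above the median of all genes, 4 were higher and 1 lower of 5 in the former class, and 2 and 2 of 4 in the latter. A gene can pass that limit through the fraction where it is high alone. Directions among genes above the median are thus partly set by the limit and do not check those of a class. Lower calls outnumbered higher ones among nucleotide sugar transporters of the Golgi and endoplasmic reticulum and their relatives (11 lower and 7 higher of 22) and among vitamin and heme transporters (7 and 4 of 13), also under each other scaling. Anion transporters had 18 higher and 4 lower of 24 (5 and 2 of the 8 above the median of all genes), but 8 and 9 with hybridization-control centring. Metal transporters had 14 higher and 10 lower of 25, a balance that turned to 10 and 12, 9 and 13, and 7 and 13 under the other scalings. Mitochondrial carriers, with 17 and 18, turned to 26 lower against 11 to 13 higher. Slc26a8 (TAT1), the chloride and bicarbonate exchanger of the sperm annulus needed for motility, was lower by 0.71 (log2 -0.71 ± 0.10, adjusted p = 6.68e-07) with overlapping arrays, at 11.37 to 12.78 in pachytene spermatocytes and 11.03 to 12.04 in round spermatids.

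The ADP/ATP carriers are 3 related members with known differences in where they act. Slc25a4 (ANT1) is the form of muscle, Slc25a5 (ANT2) is X-linked and typical of dividing cells, and Slc25a31 (ANT4) is the form of male germ cells, where it is required for meiosis. Their promoters are shown because in pachytene spermatocytes the first pair fell with age and the third did not pass. The 250 bases before the gene start, from RefSeq on GRCr8, all on the plus strand, are at chr16:52805271-52805520 for Slc25a4, chrX:120897366-120897615 for Slc25a5 and chr2:125623081-125623330 for Slc25a31. Capitals mark CCAAT in Slc25a4 and TCCCGC, the core motif of the repressor E2F6, in Slc25a5.
Slc25a4: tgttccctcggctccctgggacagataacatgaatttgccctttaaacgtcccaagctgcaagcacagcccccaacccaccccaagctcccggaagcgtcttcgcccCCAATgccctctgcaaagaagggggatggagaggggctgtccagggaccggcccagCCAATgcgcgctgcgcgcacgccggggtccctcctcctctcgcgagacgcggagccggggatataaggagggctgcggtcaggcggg
Slc25a5: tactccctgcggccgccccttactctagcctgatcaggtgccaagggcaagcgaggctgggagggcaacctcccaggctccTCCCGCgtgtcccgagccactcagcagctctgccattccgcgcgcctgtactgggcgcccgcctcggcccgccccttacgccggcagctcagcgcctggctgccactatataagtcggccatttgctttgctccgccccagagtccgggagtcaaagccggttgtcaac
Slc25a31: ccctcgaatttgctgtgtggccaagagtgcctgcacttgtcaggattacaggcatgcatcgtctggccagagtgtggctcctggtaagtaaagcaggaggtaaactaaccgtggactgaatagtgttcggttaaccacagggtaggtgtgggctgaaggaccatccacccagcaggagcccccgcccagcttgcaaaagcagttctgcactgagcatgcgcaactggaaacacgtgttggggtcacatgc
Both strands were searched for the CCAAT box, for the E2F6 motif TCCCGC, for the cyclic AMP element TGACGTCA with its shorter core TGACG, and for TATAAA, the TATA box. CCAAT matched at 2 places in Slc25a4, beginning 143 and 87 bases before the start, and TCCCGC at 1 place in Slc25a5, 169 bases before it. Only the whole cyclic AMP element contains another motif searched, its core. None of the 5 matched in Slc25a31. Among 27457 RefSeq promoters of the same length, the CCAAT box occurred in 34.3%, the E2F6 motif in 16.9%, the TATA box in 13.1%, the whole cyclic AMP element in 1.7% and its core in 19%. The Slc25a4 and Slc25a5 promoters held 19 and 20 CpG dinucleotides and were 65.6% and 66.8% G and C. The Slc25a31 promoter held 7 and was 55.2%, near the median of all promoters (6 and 52%).

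All 3 carriers were lower in round spermatids. Slc25a5 differed by -1.48 ± 0.11 (2.78-fold lower, adjusted p = 1.26e-11), Slc25a4 by -1.29 ± 0.10 (2.45-fold) and Slc25a31 by -1.09 ± 0.07 (2.13-fold). For Slc25a31, pachytene levels were 10.14 to 10.78 and round spermatid levels 9.001 to 9.56, with no overlap. Both further relatives behaved less alike: Slc25a3, the mitochondrial phosphate carrier, differed by -0.84 ± 0.04, and Slc25a39, which imports glutathione, by 0.04 ± 0.02 (adjusted p = 0.102), its arrays at 13.40 to 13.67 in pachytene spermatocytes and 13.46 to 13.68 in round spermatids. A second Slc25a39 probe set was higher in round spermatids by 0.59 ± 0.03 (adjusted p = 3.88e-16).

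The age comparison within pachytene spermatocytes asked which transporters differed between 4 and 18 months. Of the members 70 were higher and 54 lower in aged rats, against 25.5% and 19% of all genes, so the members' shares (25.3% and 19.5%) were near the background. At least 2-fold changes were seen for 5 higher and 8 lower members (0.535% and 3.67% of all genes), and the median change was 0.04 log2 units, against 0.05 for all genes. Arrays of the 2 ages lay apart in 47 members upward (16.7% of all genes) and 33 downward (10%). The split of calls followed the scaling: values as deposited gave 22 higher and 172 lower and hybridization-control centring 33 and 94 (11.3% and 26% of calls higher, against 56.5%). Under these scalings 6.7% of all genes were higher and 55.8% lower, and 11.1% and 29.3%. The median of all genes moved to -0.25 and -0.13.

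Slc25a5 had the largest fall. On the within-fraction scale its levels were 11.30 to 12.35 (median 11.61) in young and 10.11 to 10.63 (median 10.39) in aged pachytene spermatocytes. Every aged array was below every young one. The change was -1.29 ± 0.16 (2.45-fold lower, n = 6 against 6, limma adjusted p = 0.000329). Slc25a4 levels were 10.57 to 11.34 (median 10.76) in young and 9.42 to 10.03 (median 9.77) in aged rats, likewise apart, a change of -1.13 ± 0.15 (2.19-fold lower, limma adjusted p = 0.000402). Slc25a31 levels were 10.32 to 10.91 (median 10.47) and 10.31 to 10.76 (median 10.66), overlapping, and its change was 0.07 ± 0.10 (limma adjusted p = 0.65).

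**Figure D3:**
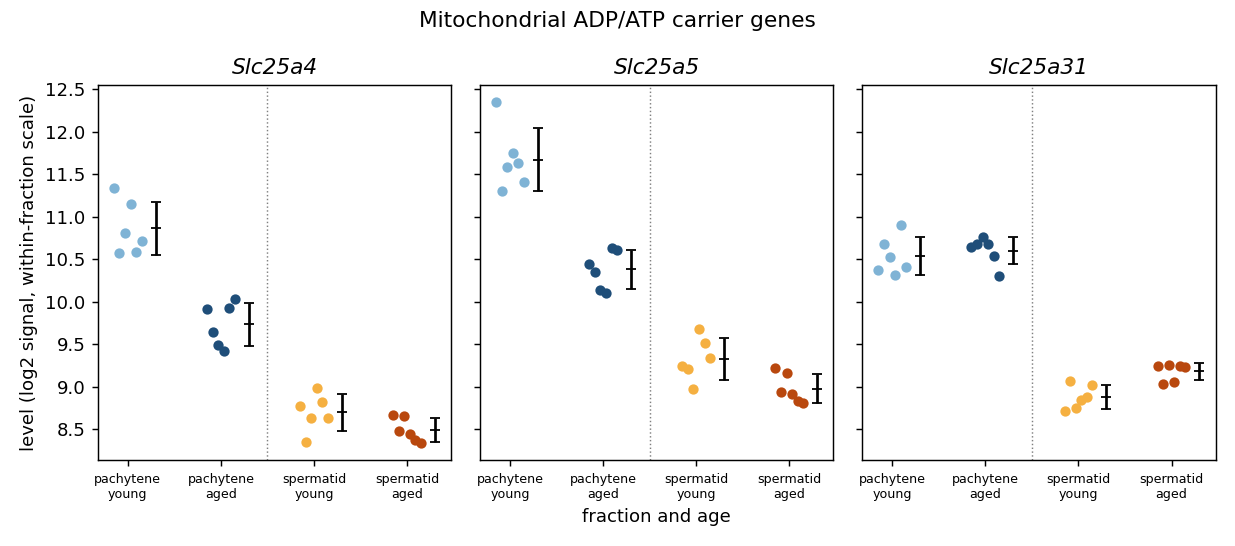
Levels of Slc25a4, Slc25a5 and Slc25a31 in each array on the log2 scale normalized within a fraction, so that only young and aged groups of the same fraction compare; points are arrays, 6 per group, and bars show the group mean and SD. In pachytene spermatocytes aged Slc25a5 arrays end at 10.63 and young ones begin at 11.30, whereas Slc25a31 arrays of both ages share one range.

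Other mitochondrial members also fell with age in pachytene spermatocytes. Slc25a30, a mitochondrial carrier known from kidney, had levels of 10.30 to 11.36 in young and 9.15 to 9.65 in aged rats, a change of -1.22 ± 0.16 (limma adjusted p = 0.000454). Slc25a46, an outer membrane protein of mitochondrial dynamics, changed by -0.94 ± 0.13 (9.29 to 10.002 against 8.39 to 8.99), again with no overlap. In the class of 40 mitochondrial carriers 10 rose and 12 fell (25% and 30%, against 25.5% and 19% of all genes). Outside it, Slc18b1 changed by -1.10 ± 0.17, Slc7a1 by -0.98 ± 0.12 and Slc24a3, a potassium-dependent sodium and calcium exchanger, by -1.04 ± 0.22; none of these overlapped between ages. A pair of falls rested more on young rats 1, 10 and 11. Slc17a2 changed by -1.16 ± 0.29, with young levels of 10.61 to 12.50 and aged levels of 10.02 to 10.78, and by -0.50 without those rats. Slc66a2 changed by -1.05 ± 0.39 (limma adjusted p = 0.0469) and did not pass without them (-0.29, adjusted p = 0.343), nor when young rat 1, 10 or 11 or aged rat 3, 5, 8, 9 or 10 was left out singly (-0.78 to -1.09, adjusted p 0.0686 to 0.096).

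Among the members that rose, Slc34a2 had the largest change, 1.42 ± 0.42 (2.67-fold, limma adjusted p = 0.0192). Its young levels ran from 6.46 to 9.20 (median 8.38) and its aged levels from 9.39 to 9.76 (median 9.62), so the young spread was wide and the groups still did not overlap. Without young rats 1, 10 and 11 the rise was 0.43. Slc25a24, an ATP-Mg/phosphate carrier, rose by 1.17 ± 0.29 (0.49 without those rats), from 6.49 to 8.21 in young to 8.28 to 8.82 in aged rats. Slc12a7 (KCC4), a potassium and chloride cotransporter, rose by 1.13 ± 0.20 (0.68 without them), with levels of 7.23 to 8.43 against 8.74 to 9.11. Slc1a4 (ASCT1), a transporter of serine and other neutral amino acids, rose by 1.10 ± 0.26 (0.52), and Slc39a4 (ZIP4), a zinc importer, by 1.06 ± 0.21 (0.59). Slc22a21, a carnitine transporter related to OCTN2, rose by 0.99 ± 0.28 (0.31) and Slc29a3 (ENT3), the lysosomal nucleoside transporter, by 0.96 ± 0.20 (0.51). These 7 genes kept adjusted p under 0.05 without the 3 rats, and in none did young and aged arrays overlap. Of the 6 nucleoside transporters 4 rose and none fell, against 25.5% and 19% of all genes.

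Markers of other cells moved with these changes. In pachytene arrays 12 of 14 Sertoli markers and 12 of 14 late spermiogenesis markers were lower in aged rats, and the Sertoli ranges given above did not overlap between ages. With the Sertoli level of each array as a covariate limma called 0 members in either direction (14 higher and 8 lower at unadjusted p under 0.05) and 0 of all genes, since that level and age nearly coincide; their parts in the age changes cannot be told apart. With the late spermiogenesis level as covariate 1 member was higher and 8 lower, against 0.415% and 2.03% of all genes; Slc25a5 (-0.87, limma adjusted p = 0.0197), Slc25a4 (-0.80, 0.0314), Slc25a30 (-0.77, 0.0314), Slc7a1 (-0.68, 0.0248) and Slc25a46 (-0.51, 0.0168) were among them. For Slc34a2 that fit gave -0.11, and for Slc22a21 -0.02, neither passing.

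**Figure D4:**
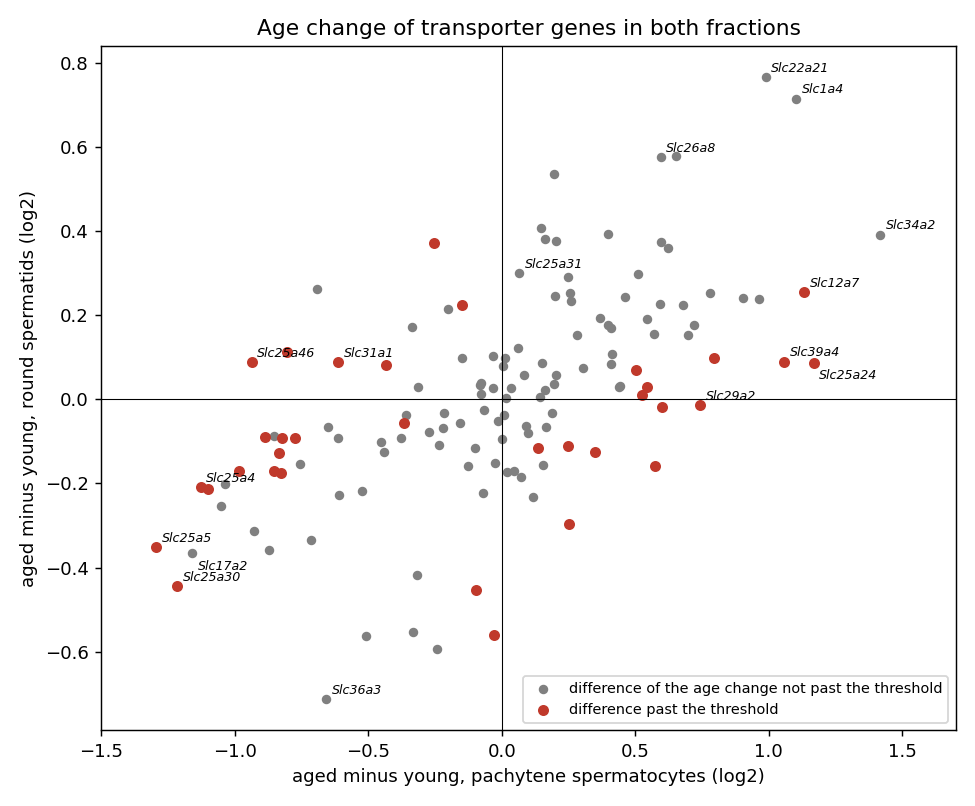
Change with age (aged minus young, log2 units) in pachytene spermatocytes (horizontal axis) against that in round spermatids (vertical axis) for the 135 members above the median of all genes in at least 1 group, each point 1 gene; red points have a difference of the age change past the threshold. Slc25a5 lies farthest to the left, at -1.29 and -0.35.

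In round spermatids 34 members were higher and 27 lower in aged rats, against 12.5% and 12.4% of all genes (12.3% and 9.75% of members), and none reached a 2-fold change (0.0352% higher and 0.0633% lower of all genes). Arrays lay apart upward in 20 members (6.41% of all genes) and downward in 14 (5.28%). Values as deposited gave 142 higher and 9 lower, and hybridization-control centring 84 and 6 (94% and 93.3% of calls higher, against 55.7%), with the median of all genes at 0.15 and 0.18. Of all genes 50.7% were then higher and 3.69% lower, and 33.7% and 2.34%. Without young rats 1, 10 and 11 the member counts were 13 and 9, against 664 and 519 of all 14217 genes. The 2 comparisons use different arrays: 26 members rose in both fractions, 37.1% of the rises in pachytene spermatocytes and 76.5% of those in round spermatids, and 13 fell in both, 24.1% and 48.1% of the falls. Over all genes the same shares were 32.2% and 65.9% of the rises and 34.5% and 53.1% of the falls.

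Slc22a21 had the largest rise in round spermatids, from 9.49 to 10.41 (median 10.18) in young to 10.67 to 10.99 (median 10.83) in aged rats. The groups did not overlap, and the change was 0.77 ± 0.14 (1.70-fold, limma adjusted p = 0.00398). Slc1a4 rose by 0.71 ± 0.16, from 9.08 to 10.34 in young to 10.40 to 10.75 in aged rats. Slc26a8 rose in both fractions, by 0.58 ± 0.10 in round spermatids (10.87 to 11.54 against 11.66 to 12.02) and by 0.60 ± 0.15 in pachytene spermatocytes (11.44 to 12.43 against 12.56 to 12.70). Young and aged arrays were apart each time, and the pachytene rise was 0.26 without young rats 1, 10 and 11. Slc13a5 rose by 0.58 ± 0.11 in round spermatids and 0.65 ± 0.19 in pachytene spermatocytes, Slc19a2, a thiamine transporter, by 0.54 ± 0.10 and 0.20 ± 0.07, and Slc29a1 (ENT1), a nucleoside transporter of the plasma membrane, by 0.41 ± 0.07 and 0.15 ± 0.05. Slc25a31 rose by 0.30 ± 0.07 in round spermatids, from 8.71 to 9.07 in young to 9.03 to 9.26 in aged rats with a slight overlap (limma adjusted p = 0.00806; 0.24 and 0.094 without the 3 rats).

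Slc36a3 had the largest fall in round spermatids, from 11.13 to 12.18 (mean 11.68) in young to 10.69 to 11.25 (mean 10.97) in aged rats. The ranges overlapped slightly, and the change was -0.71 ± 0.15 (limma adjusted p = 0.00646; -0.49 and 0.0541 without young rats 1, 10 and 11). Slc24a4, a potassium-dependent sodium and calcium exchanger, changed by -0.59 ± 0.15 and did not pass without those rats (-0.35, limma adjusted p = 0.0771). Slc25a41 changed by -0.56 ± 0.12, Slc39a13 (ZIP13), a zinc transporter of the secretory pathway, by -0.56 ± 0.12, and Slc25a37 by -0.45 ± 0.08. In these 3 genes every aged array was below every young one. Markers of other cells moved with age here too. Sertoli markers were lower in 9 of 14. Of the 12 pachytene spermatocyte markers 6 were higher and none lower (median change 0.34), and their mean level was 2.19 to 2.62 log2 units above the array median in young and 2.68 to 2.94 in aged rats, with no overlap. Among the members named above that rose, Slc13a5, Slc26a8, Slc25a31 and Slc29a1 were higher in pachytene spermatocytes. Slc1a4 was higher in round spermatids, but not with hybridization-control centring (-0.014). Slc22a21 and Slc19a2 also rose and are not placed in this list. The part of either marker level in the changes in round spermatids was not tested.

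The age change itself differed between fractions for 41 members, more positive in round spermatids for 23 and more negative for 18, against 7.36% and 8.81% of all genes. It was at least 2-fold for Slc25a5 alone, against 0.535% of all genes more positive and 0.00703% more negative. On the matched scale the difference of the age change was 1.07 ± 0.22 for Slc25a5 (limma adjusted p = 0.00328), 0.92 ± 0.20 for Slc25a4, 0.85 ± 0.16 for Slc25a46, 0.69 ± 0.11 for Slc31a1 and 0.65 ± 0.20 for Slc25a30. Each was a fall in pachytene spermatocytes that was smaller or did not pass in round spermatids, where Slc25a5 changed by -0.35 ± 0.11, Slc25a4 by -0.21 ± 0.09 (limma adjusted p = 0.15) and Slc25a46 by 0.09 ± 0.09. Cell type markers also differed this way. Of 14 late spermiogenesis markers 9 were more positive in round spermatids and 1 more negative (median 0.69). Of 10 acrosomal and spermatid markers these were 4 and 0, and of 14 Sertoli markers 4 and 0. The part of those cells in these differences was not tested. Slc31a1 (CTR1), the high-affinity copper importer, had pachytene levels of 10.06 to 10.79 in young and 9.64 to 9.83 in aged rats, and round spermatid levels of 9.13 to 9.27 and 9.19 to 9.34; another of its 4 probe sets passed in the opposite direction with age in pachytene spermatocytes. For Slc25a30 the difference did not pass when young rat 3 or aged rat 2, 3, 5, 8, 9 or 10 was left out (0.62 to 0.70, adjusted p 0.0505 to 0.0924).

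The 5 largest differences the other way were -0.82 ± 0.18 for Slc39a4, -0.56 ± 0.17 for Slc25a24, -0.56 ± 0.14 for Slc25a51l1, -0.53 ± 0.11 for Slc29a2 (ENT2), a nucleoside transporter, and -0.53 ± 0.14 for Slc39a13. The first 4 rose in pachytene spermatocytes and did not pass in round spermatids, and Slc39a13 fell in round spermatids alone, by -0.56 against -0.03. None of the 5 passed on the values as deposited after the offset, and none with hybridization-control centring, where the median of all genes moved to 0.29 and 0.22; Slc39a13 turned to 0.03 on the former. For Slc25a24 the difference also missed the threshold in 8 of 12 fits that left out 1 rat (young rat 1, 10 or 11, aged rat 3, 5, 8, 9 or 10; -0.48 to -0.60) and without young rats 1, 10 and 11 together (-0.21, limma adjusted p = 0.282). Under those scalings limma called 222 members more positive and 0 more negative, and 93 and 0 (0 and 1 more negative at unadjusted p under 0.05). Over all genes these shares were 76.1% and 0.134%, and 32.3% and 0.134%.

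Members on the X chromosome, which is transcriptionally silenced in pachytene spermatocytes, numbered 9. With age in pachytene spermatocytes 7 of them were lower and none higher, with a median of -0.60, whereas of the 268 others 47 were lower and 70 higher (median 0.05). The same held beyond transporters: of all 444 X-linked genes 53.4% were lower and 3.15% higher (median -0.38), against 17.9% and 26.3% of genes on other chromosomes. The 7 included Slc25a5, Slc6a8, the creatine transporter (-0.78 ± 0.14, from 8.93 to 9.86 in young to 8.27 to 8.70 in aged rats), and Slc25a14, a mitochondrial carrier also called UCP5 (-0.80 ± 0.13, young levels of 7.24 to 7.998 and aged levels of 6.44 to 6.97). In both, aged arrays lay below young ones. In round spermatids 1 X-linked member rose and 1 fell (1.8% and 16.4% of all X-linked genes). This grouping was made after the values were seen and was not tested.

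Of 24 listed genes for channels, pumps and enzymes that work beside these carriers in sperm ion transport, 13 were measured. Between fractions 9 were higher and 2 lower in round spermatids, against 49.2% and 39.1% of all genes. Those with the smallest p were Car2, a carbonic anhydrase (1.79 ± 0.09), Cftr, the chloride and bicarbonate channel (1.77 ± 0.10), Catsper2, a subunit of the sperm calcium channel (0.96 ± 0.05), and Trpv4, a calcium-permeable channel (0.57 ± 0.03). With age 4 rose and 5 fell in pachytene spermatocytes (25.5% and 19% of all genes), and 1 rose and 7 fell in round spermatids (12.5% and 12.4%). With age in pachytene spermatocytes Car2 changed by -0.49 ± 0.16 and Catsper2 by 0.49 ± 0.09. In round spermatids Car2 changed by -0.52 ± 0.15 and Cftr by -0.45 ± 0.12.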

How the data were processed

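Values were the authors' deposited log2 expression values, 1 table of 24 Rat230_2 arrays; the summarising software was not given in the sources used here. Groups came from the labels. Genes were named through the platform annotation: of the probe sets tested, 20826 had 1 symbol, 436 several and 9780 none, and only the first were named. All 277 members matched the RefSeq table. For the comparison of fractions, 90.295 was added to linear pachytene values so that 45 control probe sets not of rat matched, and the 24 arrays were quantile normalized (matched scale); for age, each fraction was normalized alone. Tests used limma 3.58.1 in R 4.3.3 (lmFit, eBayes) on 31042 probe sets, with Benjamini-Hochberg adjustment over all of them and a threshold of 0.05; fits were tested on simulated data. Errors are SE from the fit. The p-values measure the spread between arrays, and 6 arrays per group limit the precision.

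Genes named were the 10 members with the largest change past the threshold in each direction for each comparison, 5 for the difference of the age change, class leaders and a list of carriers known from testis, and for partners the 4 with the smallest p. The members, lists and classes were chosen with earlier results of these data known. Alternatives were other scalings, filters, variance models, probe set rules, left-out rats, covariates and rat blocks.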

Additional observations from a re-analysis of the deposited data

Results flagged for a closer look

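Among 320 groups of 6 arrays (80 named members in 4 groups), 13 held an array far from the other 5; chance alone sets about 1 in 20 groups apart. Values are on the within-fraction log2 scale. Young rat 10 accounted for 4 in round spermatids: Slc22a15, an organic ion transporter, at 9.28 (others 9.96 to 10.3), Slc22a24 at 9.49 (8.56 to 8.84), Slc45a4, a sucrose transporter relative, at 8.37 (8.98 to 9.29) and Slc6a9, the glycine transporter GLYT1, at 9.09 (8.69 to 8.76). In pachytene spermatocytes the same rat was low for Slc27a2, a fatty acid transport protein, at 8.50 (8.91 to 9.06) and for Slc39a3, a zinc importer, at 9.64 (10.024 to 10.234). Young rat 11 was high in pachytene spermatocytes for Slc25a39 at 13.6 (13.3 to 13.4) and Slc35e4 at 7.13 (6.41 to 6.66). Young rat 1 was high for Slc22a24 in pachytene spermatocytes at 6.75 (5.84 to 6.11) and for Slc6a14, an amino acid transporter, in round spermatids at 6.78 (6.61 to 6.63). Aged rats stood apart 3 times: rat 10 for Slc25a46 in round spermatids at 8.94 (9.04 to 9.09) and Slc35a4 in pachytene spermatocytes at 8.19 (8.33 to 8.41), and rat 5 for Slc39a11, a zinc transporter, in pachytene spermatocytes at 10.5 (the others all 10.3).

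The age change differed between fractions, by the interaction of age and fraction in limma (matched scale, adjusted p under 0.05), for the 10 members named for it. The difference, round spermatids minus pachytene spermatocytes, was 1.07 for Slc25a5, 0.918 for Slc25a4, 0.850 for Slc25a46, 0.693 for Slc31a1 and 0.654 for Slc25a30. It was -0.818 for Slc39a4, -0.562 for Slc25a24, -0.558 for Slc25a51l1, -0.526 for Slc29a2 and -0.525 for Slc39a13.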

How the results depend on the processing

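Scaling and, in pachytene spermatocytes, marker covariates moved the counts. With hybridization-control centring 89 members were higher in round spermatids, against 32.3% of all genes. With age in pachytene spermatocytes, deposited values gave 22 higher and 172 lower and hybridization-control centring 33 and 94. Over all genes these were 6.7% and 55.8%, and 11.1% and 29.3%. With age in round spermatids, median centring gave 21 higher, deposited values 142 higher and 9 lower, hybridization-control centring 84 and 6, and leaving out young rats 1, 10 and 11 gave 13 and 9. The difference of the age change was called for 45 and 55 members with median centring, 222 and 0 on deposited values after the offset, and 93 and 0 with hybridization-control centring. Over all genes these were 11.7% and 19.2%, 76.1% and 0.134%, and 32.3% and 0.134%. The median of all genes shifted to 0.13 with median centring of pachytene age values. With covariates in pachytene spermatocytes the counts were 0 and 0 (Sertoli) and 1 and 8 (late spermiogenesis). Over all genes these were 0% and 0%, and 0.415% and 2.03%. At unadjusted p under 0.05 limma called 14 and 8 members with the Sertoli covariate. Leaving out 1 rat at a time gave 147 to 151 higher and 89 to 93 lower between fractions, 52 to 70 and 39 to 59 with age in pachytene spermatocytes, 23 to 36 and 19 to 31 in round spermatids, and 17 to 32 and 12 to 23 for the difference of the age change.

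Directions between fractions turned with median centring for Slc41a3 (-0.16), Slc45a4 (-0.42), Slc37a4 (-0.077), Slc39a10 (-0.021) and Slc6a9 (-0.0075). On deposited values after the offset they turned for Slc41a3 (-0.22), Slc45a4 (-0.48), Slc14a2 (-0.022), Slc37a4 (-0.14), Slc39a10 (-0.0797) and Slc6a9 (-0.066). With hybridization-control centring they turned for Slc41a3 (-0.27), Slc45a4 (-0.54), Slc1a4 (-0.014), Slc14a2 (-0.077), Slc37a4 (-0.19), Slc39a10 (-0.13) and Slc6a9 (-0.12). Averaging the probe sets of a gene gave 0.074 for Slc35b1, -0.91 for Slc33a1 and 0.036 for Slc52a3. Without probe sets open to cross-hybridisation the values were -1.31 for Slc4a7 and -0.65 for Slc14a2, and young rats alone gave -0.018 for Slc39a10. With the Sertoli covariate the age change in pachytene spermatocytes turned for Slc17a2 (0.22), Slc18b1 (0.076), Slc66a2 (0.056), Slc24a3 (0.46), Slc6a14 (0.77), Slc22a21 (-0.15), Slc34a2 (-0.58) and Slc26a8 (-0.089), and with the late spermiogenesis covariate for Slc66a2 (0.32), Slc22a21 (-0.023) and Slc34a2 (-0.11). None of these turned values passed (limma adjusted p 0.604 to 0.992 with the former and 0.493 to 0.956 with the latter). The Sertoli level and age nearly coincide, so their parts cannot be told apart. The difference of the age change for Slc39a13 was 0.031 on deposited values. The probe set rules read or average other probe sets of a gene. For the other settings, the covariates among them, the cause of the turns was not tested. Over all named members, leave-one-out fits aside, 1225 values kept their side of the threshold without a turn, 67 lost it, 18 passed it and 36 turned. In leave-one-out fits these were 1335, 43, 2 and 0. A change of sign counted as a turn only where the main or the alternative fit passed. The 1225 and 1335 can therefore include sign changes of values that passed in neither.

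Titles carry the same rat number in both fractions, and the labels do not say whether both came from 1 animal. Deviations from group means of same-numbered arrays correlated at -0.074 to 0.361, above 0 in 10 of 12 pairs and above 0.1 in 8, and 6 of 12 arrays correlated best with their own number among 6; this leans towards pairing without holding in every pair, so the replicate block was kept as an alternative. As a random block (consensus correlation 0.060) it gave 151 higher and 91 lower between fractions and 25 and 20 for the difference of the age change, and as a fixed block 149 and 91, and 27 and 19. Numbers shared by young and aged rats are different animals; as a block they gave 68 and 54 in pachytene spermatocytes and 34 and 27 in round spermatids. Members below the median of all genes are dim, so small differences in them are uncertain. Of these 142 members 82 were called higher and 37 lower between fractions, but 0 and 2 by at least 2-fold. Lying below the median in every group itself limits large differences. Shares among equally dim genes were not counted, so these counts do not set transporters apart.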
